A study of Mus musculus with 77 samples.

Results

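Bone marrow-derived macrophages of Trem2 knockout mice (T2KO) were compared with those of DBA/2J mice (DBA), both kept in room air (Nx) for 24 h of culture. The comparison rested on 4 RNA libraries, 2 of each genotype, out of 77 samples in the series, and it covered all 24940 transcripts listed for the macrophages. The libraries were chosen by their genotype and exposure labels alone, and all 4 carry the same date code. The series asks how genetic variation in a Trem2 and p53 axis bears on lung injury by oxygen. It also holds newborn lungs, macrophages in hyperoxia (Hprx) and p53 chromatin immunoprecipitation. Per the labels, the genotypes are "Trem2 knock out" and "DBA/2J", and mice of both came from the Jackson Laboratory. The sources used here do not state the age or sex of the marrow donors. No label says whether the 2 libraries of a genotype came from separate animals, so the p-values speak of the spread between libraries, which may be technical. The knockout line is generally known to be kept on the C57BL/6J background, which the labels do not state. The knockout and the DBA/2J strain therefore differ in Trem2 and in strain at once, and the lost receptor and the strain background cannot be told apart in this comparison. Values of the 2 C57BL/6 (B6) room-air libraries, which carry Trem2 and another date code, are given beside the main genes as a further level with no test.

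Trem2 is a receptor of macrophages, microglia and osteoclasts that binds lipids, lipoproteins and cell debris and signals through the adaptor Tyrobp (DAP12) and the kinase Syk. It is known for macrophages loaded with lipid, for the clearance of dead cells and for survival of the cells. Inbred strains of mice also differ widely in multigene families of immunity, among them the MHC class I genes, the Ifi200 family of DNA sensors, the Nlrp1 inflammasome sensors and the paired immunoglobulin-like receptors.

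Expression is given in the TPM values of the authors, which scale reads to transcript length and to the library, and fold changes are differences of log2(TPM + 1), T2KO minus DBA, with their standard errors, which understates the change of genes at low levels. A gene was said to rise, fall or change where limma's adjusted p was below 0.05 over the 12320 genes tested. The exact permutation test of 2 libraries against 2 cannot give a two-sided p below 0.333, so the test draws its spread from all 12 macrophage libraries. The headers mark the libraries of each B6 group MF and F, and all T2KO and DBA libraries MF, with no explanation of the marks. Gaps between the B6 libraries therefore enter the standard errors and adjusted p-values given for T2KO against DBA. The estimated depth was 43.2 and 47.0 M reads in T2KO libraries, against 18.3 and 16.7 M reads in DBA libraries, so depth moves with genotype, and its part in the results was not tested. The depth was worked back from the smallest steps of the TPM values. The macrophage markers Lyz2 (15438 and 16743 TPM in T2KO, 15384 and 16188 TPM in DBA), Cd68 (1999 and 1962 TPM in T2KO, 2083 and 1819 TPM in DBA) and Adgre1 (555 and 553 TPM in T2KO, 608 and 639 TPM in DBA) were high in all 4 libraries. Of 8 lymphocyte markers 7 stayed below 1 TPM in every library, and Cd79b had 5.49 and 4.6 TPM in T2KO libraries, against 3.95 and 4.15 TPM in DBA libraries. Fibroblast transcripts were present in both genotypes, with Col1a1 at 29.8 and 24.5 TPM in T2KO and 27.8 and 21 TPM in DBA libraries. The 10 neutrophil markers summed to 98.8 and 51.7 TPM in T2KO libraries, against 5.82 and 7.25 TPM in DBA libraries, with Ly6g listed at 0 in all 4. Of the 12 macrophage markers themselves 2 rose and 5 fell (1 rose in each fit without 1 library, and 3 fell without T2KO replicate 1), against 10.1% and 15.1% of all genes tested. Osteoclast markers fell in 3 of 4 tested, all lost without DBA replicate 1 or T2KO replicate 2 and 1 left without DBA replicate 2 or T2KO replicate 1, and Acp5 had 3.32 and 3.25 TPM in T2KO, against 7.73 and 6.32 TPM in DBA libraries. Xist and 4 Y-linked genes were detected in all 4 libraries, so each held RNA of both sexes. Ddx3y had 11.2 and 10.5 TPM in T2KO, against 15.6 and 21.3 TPM in DBA libraries, and Xist 75.2 and 74.8 TPM in T2KO, against 66.7 and 75.1 TPM in DBA libraries. All 4 Y-linked genes were lower in both T2KO libraries. They did not pass in the fit of all 12 libraries, whose spread includes the B6 pairs marked MF and F. All 4 passed, lower, when the fit held the compared groups alone. The part of the share of male cells in other results was not tested. In bulk RNA, fewer cells of a type and less RNA per cell cannot be told apart.

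Trem2 (NM_001272078, chr17:48346401-48352276 in mm10, plus strand) had 236 and 239 TPM in T2KO macrophages, against 1096 and 1030.3 TPM in DBA macrophages. Both T2KO libraries lay below both DBA libraries, and the B6 libraries had 948 and 962 TPM. Trem2 fell to 0.223 of its DBA mean in T2KO cells (log2 fold change -2.16 ± 0.05, adjusted p = 4.87e-09). The remaining transcript was not at 0. The sources used here do not state which exons the knockout lacks, so this level shows the direction the label gives and does not tell whether the remaining RNA encodes the receptor.

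Of 12 tested genes of the Trem family and its partners, 2 rose (16.7%, against 10.1% of all genes) and 3 fell (25%, against 15.1%). The falls include Trem2 itself, which follows the knockout label and is no result about its partners. The median log2 fold change of the 12 was 0.03 (-0.08 without T2KO replicate 2), beside -0.06 over all genes. Tyrobp, the adaptor that Trem2 needs for signalling, had 1260.3 and 1298 TPM in T2KO macrophages, against 1297 and 1152 TPM in DBA macrophages, and the groups overlapped (log2 fold change 0.07 ± 0.08, adjusted p = 0.566). Syk, the kinase recruited by that adaptor, had 197 and 192 TPM in T2KO macrophages, against 243 and 236 TPM in DBA macrophages, and it fell (log2 fold change -0.29 ± 0.05, adjusted p = 0.0019). Treml2, a related receptor encoded beside Trem2, rose and had 5.33 and 5.6 TPM in T2KO macrophages, against 0.503 and 1.44 TPM in DBA macrophages (log2 fold change 1.76 ± 0.25, adjusted p = 7.67e-04), a low level in both. Plcg2 and Inpp5d, which encode a lipase and a phosphatase downstream of the receptor, did not pass the test, with log2 fold changes of 0.08 ± 0.10 and 0.13 ± 0.09. Adam10, a protease that sheds the receptor, also did not pass (0.06 ± 0.07). Ms4a4a and Adam17 passed with all 4 libraries, Ms4a4a higher and Adam17 lower, but the call of Ms4a4a was lost in each of the 4 fits without 1 library (adjusted p up to 0.17), and that of Adam17 in the 3 fits without DBA replicate 2, T2KO replicate 1 or T2KO replicate 2 (adjusted p up to 0.173). Each of those fits counted 1 higher gene in this list.

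Trp53 itself, which encodes p53, had 43.6 and 45.8 TPM in T2KO macrophages, against 53.1 and 47.3 TPM in DBA macrophages, a difference that did not pass (log2 fold change -0.16 ± 0.12, adjusted p = 0.346). Cdkn1a, the p53-driven inhibitor of cyclin-dependent kinases, had 103 and 101 TPM in T2KO macrophages, against 119 and 126 TPM in DBA macrophages. It did not pass either in the fit of all 12 libraries (log2 fold change -0.26 ± 0.13, adjusted p = 0.171). Its libraries did not overlap between the groups, and it was called lower when the fit held the compared groups alone. Of 39 tested p53 targets 5 were called higher (12.8%) and 3 lower (7.69%), against 10.1% and 15.1% of all genes tested. Their median log2 fold change was 0.02 (-0.006 without DBA replicate 1). Gdf15, a stress-induced cytokine, had the largest rise in that list at 38.5 and 32.8 TPM in T2KO macrophages, against 5.03 and 2.34 TPM in DBA macrophages. Its libraries did not overlap (log2 fold change 3.03 ± 0.24, adjusted p = 1.64e-05). B6 libraries had 20.0 and 14.6 TPM. Fas, the death receptor, rose at low levels, with 8.33 and 9.77 TPM in T2KO macrophages, against 2.08 and 3.61 TPM in DBA macrophages (log2 fold change 1.41 ± 0.24, adjusted p = 0.00219). Sesn1, a stress protein that restrains the kinase complex mTORC1, had 141 and 154 TPM in T2KO macrophages, against 94.9 and 102 TPM in DBA macrophages, and it rose (log2 fold change 0.58 ± 0.08, adjusted p = 8.04e-04). Bbc3, the pro-apoptotic protein Puma, had 13.4 and 14 TPM in T2KO macrophages, against 19.6 and 22.6 TPM in DBA macrophages, and it fell (log2 fold change -0.59 ± 0.11, adjusted p = 0.00375), as did the kinase Plk2, at 39 and 35.8 TPM in T2KO macrophages, against 73.8 and 74.9 TPM in DBA macrophages (log2 fold change -0.97 ± 0.08, adjusted p = 2.43e-05). The number of p53 targets called higher was 8 without DBA replicate 2 and 3 without T2KO replicate 2, beside 5 with all 4 libraries.

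Over all genes, 3095 of 12320 differed between T2KO and DBA macrophages (25.1%), 1240 of them higher in T2KO (10.1%) and 1855 lower (15.1%). Quantile normalization, a scaling alternative, split 3223 calls into 1627 higher and 1596 lower and moved the median of all genes from -0.06 to -0.01, so the excess of falls over rises depends on the scaling. The total was 1732 without T2KO replicate 1 and 1571 without T2KO replicate 2. A log2 fold change of at least 1 in size was seen in 597 called genes (4.85% of those tested), 305 higher and 292 lower. The 2 libraries of each genotype did not overlap in 7941 genes (64.5%). Of the 3095 genes, 1968 (63.6%) were also called in the same direction between T2KO and DBA macrophages in hyperoxia, which are other libraries, and 6 were called in the opposite direction. Both comparisons took their spread from the same fit of all 12 libraries, so their calls are not independent. In hyperoxia 2676 genes were called (21.7%), so the 1968 were 73.5% of those. Among the 597 larger differences 509 (85.3%) were called in the same direction there. Only 4 genes passed a test of whether the difference between genotypes itself differed between hyperoxia and room air (0.0325% of genes tested, and 850 at an unadjusted p below 0.05). Genes given below with a fold change of their own as risen or fallen passed the test in the fit of all 12 libraries and in each of the 4 fits that left out 1 of the 4 libraries, unless stated. Counts of list members are from the fit of all 12 libraries. Each is to be read beside the 10.1% of all tested genes called higher and the 15.1% called lower. Both shares were lower in each fit without 1 library, so a smaller count there need not mean a smaller excess. Genes named beyond the rule given with the processing were chosen after their values were seen. The counts of list members without 1 library were an alternative added after the data were seen.

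**Figure D1:**
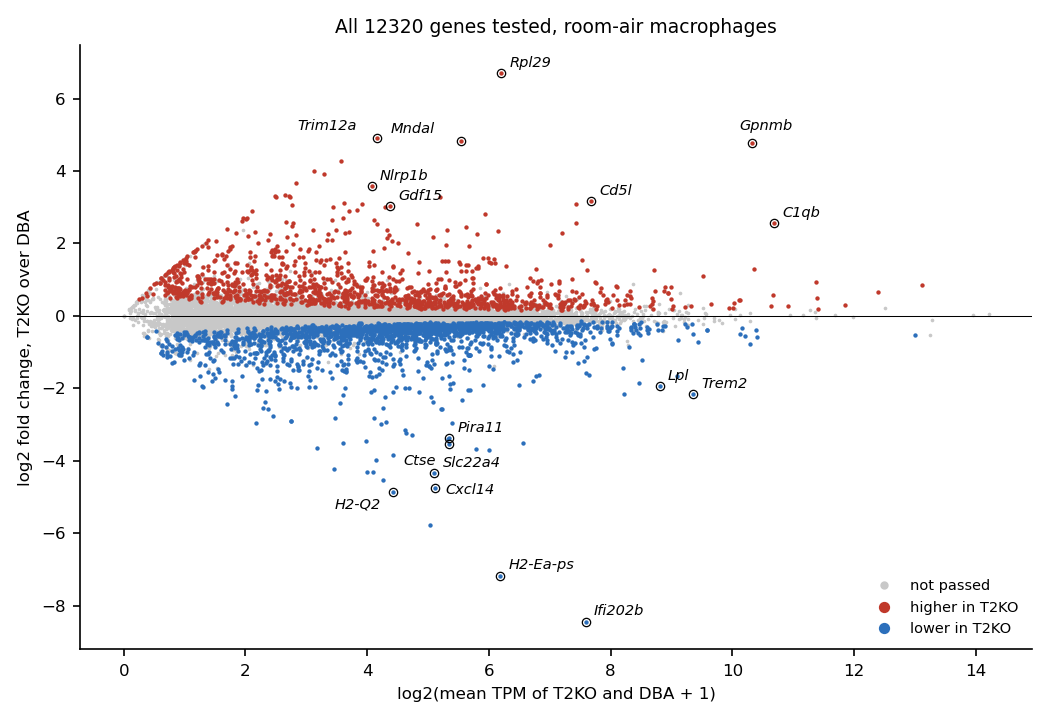
Each point is 1 of the 12320 genes tested, with its mean level over T2KO and DBA libraries on the x axis as log2(mean TPM + 1) and its log2 fold change, T2KO over DBA, on the y axis. Red points rose and blue points fell at an adjusted p below 0.05, and circled genes are named. Rpl29 stands highest at 6.71 and Ifi202b lowest at -8.44, and Gpnmb combines a large rise with a high level.

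The largest rise was that of Rpl29, a protein of the large ribosomal subunit, with 137 and 151 TPM in T2KO macrophages, 0.503 and 0.282 TPM in DBA macrophages and 177 and 160.3 TPM in B6 macrophages (log2 fold change 6.71 ± 0.09, adjusted p = 9.60e-11). Gpnmb, a glycoprotein of lysosomes and melanosomes that marks lipid-laden macrophages and for which DBA/2J mice are known to carry a nonsense allele, had 2465 and 2457 TPM in T2KO macrophages, 89.7 and 87.2 TPM in DBA macrophages and 3517 and 5461 TPM in B6 macrophages. It was 27.8-fold higher in T2KO by the ratio of means (log2 fold change 4.78 ± 0.20, adjusted p = 1.81e-07). In neither gene did any T2KO library come near a DBA library. Glo1, which encodes glyoxalase and is known to be duplicated in some strains, DBA/2J among them, had 16.8 and 16.3 TPM in T2KO macrophages, against 38.4 and 38.1 TPM in DBA macrophages, and it fell (log2 fold change -1.16 ± 0.07, adjusted p = 2.31e-06).

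Trim12a, a member of the Trim5 group of antiviral ubiquitin ligases, had 33.5 and 33.5 TPM in T2KO macrophages, 0.145 and 0.162 TPM in DBA macrophages and 21.4 and 17.1 TPM in B6 macrophages (log2 fold change 4.90 ± 0.10, adjusted p = 2.29e-09). Its neighbour Trim5 had 10.7 and 11 TPM in T2KO macrophages, against 0.353 and 0.066 TPM in DBA macrophages (log2 fold change 3.31 ± 0.13, adjusted p = 1.80e-07). Nlrp1b, the inflammasome sensor cleaved by anthrax lethal factor, had 30.2 and 29.9 TPM in T2KO macrophages, 1.94 and 1.27 TPM in DBA macrophages and 12.6 and 9.28 TPM in B6 macrophages (log2 fold change 3.59 ± 0.17, adjusted p = 5.44e-07). In DBA cells these genes were low in both libraries and in T2KO cells their replicates were close to each other. The adjacent pseudogene Nlrp1c-ps had 21.3 and 21.8 TPM in T2KO macrophages, against 0.17 and 0.143 TPM in DBA macrophages (log2 fold change 4.28 ± 0.16, adjusted p = 8.15e-08).

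Mcoln3, an ion channel of endosomes and lysosomes, had 13.1 and 11.4 TPM in T2KO macrophages, 0.086 and 0 TPM in DBA macrophages and 11.4 and 15.7 TPM in B6 macrophages (log2 fold change 3.66 ± 0.19, adjusted p = 7.48e-07). Cyp4f18, a cytochrome P450 that hydroxylates fatty acids and leukotriene B4, had 17.1 and 17.8 TPM in T2KO macrophages, 0.087 and 0.389 TPM in DBA macrophages and 12.4 and 13.8 TPM in B6 macrophages (log2 fold change 3.91 ± 0.18, adjusted p = 4.90e-07). Fggy, a carbohydrate kinase, had 9.48 and 8.87 TPM in T2KO macrophages, 0 and 0.044 TPM in DBA macrophages and 7.92 and 7.29 TPM in B6 macrophages (log2 fold change 3.32 ± 0.12, adjusted p = 9.03e-08). All 3 were at or near 0 in both DBA libraries and at like levels in T2KO and B6 libraries. Cd22, an inhibitory sialic acid receptor best known from B cells, had 10.5 and 10.5 TPM in T2KO macrophages, 0.106 and 0.158 TPM in DBA macrophages and 4.38 and 10.9 TPM in B6 macrophages (log2 fold change 3.34 ± 0.35, adjusted p = 1.09e-04), while the B cell gene Ms4a1 had 0.12 and 0 TPM in T2KO and 0.071 and 0.080 TPM in DBA libraries. Klk1b11, a kallikrein-related protease, had 11.8 and 19.1 TPM in T2KO macrophages and was listed at 0 in both DBA libraries.

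The largest fall was that of Ifi202b, a DNA-binding protein of the Ifi200 family that lacks a pyrin domain. It had 0.103 and 0.063 TPM in T2KO macrophages, 312 and 455 TPM in DBA macrophages and 0.049 and 0 TPM in B6 macrophages (log2 fold change -8.44 ± 0.16, adjusted p = 1.29e-09). H2-Ea-ps, the listed name of the MHC class II Eα chain, which C57BL/6 mice are known not to transcribe, was listed at 0 in both T2KO and both B6 libraries and had 153 and 134 TPM in DBA libraries. Both genes were high in both DBA libraries and at or near 0 in both T2KO libraries.

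Cxcl14, a chemokine best known from epithelia, had 1.37 and 1.55 TPM in T2KO macrophages, 69.6 and 61.8 TPM in DBA macrophages and 1.86 and 1.8 TPM in B6 macrophages (log2 fold change -4.76 ± 0.10, adjusted p = 2.14e-09). Slc22a4, a transporter of ergothioneine and organic cations, had 2.42 and 2.04 TPM in T2KO macrophages, 64.9 and 64.1 TPM in DBA macrophages and 1.6 and 2.46 TPM in B6 macrophages (log2 fold change -4.34 ± 0.13, adjusted p = 1.76e-08). Both were high in both DBA libraries and low in all T2KO and B6 libraries. Clmp, an adhesion protein of tight junctions, had 2.16 and 1.47 TPM in T2KO macrophages, against 38.7 and 39.9 TPM in DBA macrophages (log2 fold change -3.85 ± 0.12, adjusted p = 2.54e-08). Chst10, a carbohydrate sulfotransferase, had 0.396 and 0.282 TPM in T2KO macrophages, against 16.5 and 15 TPM in DBA macrophages (log2 fold change -3.64 ± 0.11, adjusted p = 2.46e-08). Atp6v0e2, a small subunit of the proton pump of lysosomes, had 0.101 and 0.124 TPM in T2KO macrophages, against 19.8 and 19.6 TPM in DBA macrophages (log2 fold change -4.22 ± 0.12, adjusted p = 1.76e-08). Atp5g2, a subunit of the mitochondrial ATP synthase, had 1.01 and 1.24 TPM in T2KO macrophages, against 31.4 and 33.2 TPM in DBA macrophages (log2 fold change -3.97 ± 0.21, adjusted p = 1.03e-06). The ribosomal protein gene Rpl38 had 5.95 and 8.19 TPM in T2KO macrophages, against 107 and 96.6 TPM in DBA macrophages (log2 fold change -3.68 ± 0.17, adjusted p = 3.74e-07). The remaining large falls were the MHC class I genes H2-Q2, H2-Q5 and H2-Q10, described with their family.

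Rpl29, Rpl38, Atp5g2, Klk1b11, the Nlrp1, Trim and Ifi200 genes and the H2-Q genes have close copies in the genome, so their values are uncertain where reads of 1 copy can be counted for another. The build is mm10 per the submitters' processing notes, which is a C57BL/6J sequence. DBA alleles were not analysed, and the effect of that build on DBA values was not tested.

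**Figure D2:**
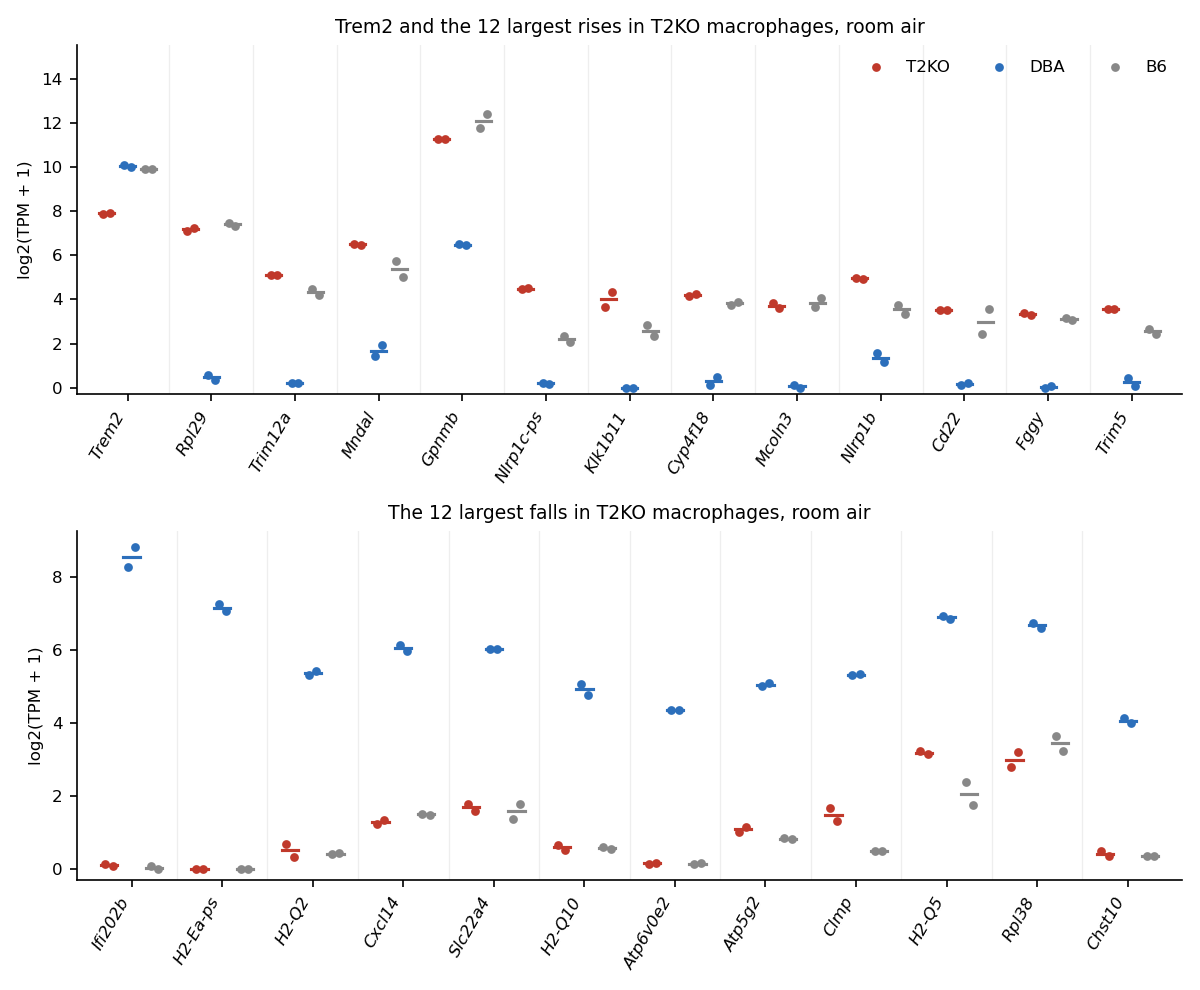
Levels of Trem2 and of the 12 largest rises (upper panel) and of the 12 largest falls (lower panel), as log2(TPM + 1) on the y axis. Points are single libraries and bars the mean of 2, red for T2KO, blue for DBA and grey for B6. The 24 genes were picked among called genes whose T2KO and DBA libraries do not overlap, so their separation follows from that choice. Trem2 lies lower in T2KO alone.

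The Ifi200 family, which encodes nuclear and cytosolic DNA sensors on chromosome 1, moved in both directions. Of 12 tested members 7 rose (58.3%, against 10.1% of all genes tested) and 1 fell (8.33%, against 15.1%). Their median log2 fold change was 0.81. The sequence just upstream of 4 members is shown because their transcripts differed most between the genotypes. These are the 250 bases before the transcription start in RefSeq's GRCm38.p6, the C57BL/6J reference, read 5′ to 3′ on the strand of the gene in lower case, with matches to the core repeat of an interferon-stimulated response element in capitals, searched as GAAA, any 2 bases and GAAA again.
Ifi202b (chr1:173982845-173983094, minus strand): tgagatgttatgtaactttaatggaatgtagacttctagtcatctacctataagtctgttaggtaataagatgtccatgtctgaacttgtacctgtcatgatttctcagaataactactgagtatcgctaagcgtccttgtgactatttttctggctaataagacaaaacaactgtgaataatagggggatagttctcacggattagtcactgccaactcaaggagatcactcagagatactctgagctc
Mndal (chr1:173880188-173880437, minus strand): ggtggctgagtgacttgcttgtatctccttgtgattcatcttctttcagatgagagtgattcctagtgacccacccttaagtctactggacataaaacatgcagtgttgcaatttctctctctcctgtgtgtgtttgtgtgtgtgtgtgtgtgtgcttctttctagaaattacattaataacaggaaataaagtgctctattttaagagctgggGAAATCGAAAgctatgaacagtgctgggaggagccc
Ifi213 (chr1:173599273-173599522, minus strand): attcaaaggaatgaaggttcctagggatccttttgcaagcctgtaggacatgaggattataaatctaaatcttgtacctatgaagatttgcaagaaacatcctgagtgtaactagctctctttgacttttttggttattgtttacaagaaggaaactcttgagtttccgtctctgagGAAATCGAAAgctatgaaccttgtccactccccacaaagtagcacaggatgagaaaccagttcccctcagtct
Ifi209 (chr1:173630609-173630858, plus strand): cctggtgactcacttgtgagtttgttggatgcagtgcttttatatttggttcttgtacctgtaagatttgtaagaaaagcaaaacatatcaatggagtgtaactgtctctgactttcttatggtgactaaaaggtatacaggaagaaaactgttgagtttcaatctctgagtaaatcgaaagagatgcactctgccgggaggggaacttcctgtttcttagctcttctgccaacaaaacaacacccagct
Mndal and Ifi213 hold the motif, with its first base 36 bases upstream of the start in Mndal and 73 bases upstream in Ifi213, while the windows of Ifi202b and Ifi209 hold none. The motif was searched on both strands and was found in 978 of 32851 RefSeq promoter windows of this length (2.98%). It was present in 8 of the 11 members with a matching RefSeq window (72.7%), of which 5 rose and 3 did not pass. Of the 3 members without it Ifi209 rose, Ifi202b fell and Aim2 did not pass. Some of these windows are close copies of each other, as in Mndal and Ifi203 or in Ifi208 and Ifi213, so the 8 matches are not independent. A match describes these letters only, and the DBA promoter sequences were not analysed.

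Mndal had 91.5 and 87.1 TPM in T2KO macrophages, 1.7 and 2.81 TPM in DBA macrophages and 52.9 and 31.7 TPM in B6 macrophages (log2 fold change 4.82 ± 0.23, adjusted p = 5.35e-07). Ifi213 had 11.5 and 10.5 TPM in T2KO macrophages, against 0.109 and 0.368 TPM in DBA macrophages (log2 fold change 3.28 ± 0.23, adjusted p = 7.41e-06). Ifi209 had 70.0 and 61 TPM in T2KO macrophages, against 11.3 and 12.4 TPM in DBA macrophages (log2 fold change 2.37 ± 0.11, adjusted p = 5.12e-07). In all 3 genes every T2KO library lay far above both DBA libraries. Ifi208 had 8.59 and 7.59 TPM in T2KO macrophages, against 1.47 and 1.26 TPM in DBA macrophages (log2 fold change 1.94 ± 0.16, adjusted p = 2.59e-05). Ifi204, which senses DNA upstream of type I interferon, had 161 and 143 TPM in T2KO macrophages, against 61.3 and 93.3 TPM in DBA macrophages, and it rose (log2 fold change 1.00 ± 0.18, adjusted p = 0.00288). Ifi203 had 70.0 and 67.1 TPM in T2KO macrophages, against 33.8 and 39.3 TPM in DBA macrophages (log2 fold change 0.89 ± 0.17, adjusted p = 0.0037). Aim2, the inflammasome sensor of cytosolic DNA, had 19.7 and 19.4 TPM in T2KO macrophages, against 16.5 and 21 TPM in DBA macrophages, so the groups overlapped (adjusted p = 0.716). Ifi207, the most highly expressed member in T2KO cells, had 230.3 and 224 TPM in T2KO macrophages, against 206 and 229.6 TPM in DBA macrophages, and it did not pass (adjusted p = 0.535). Ifi205 passed with all 4 libraries only at about 1 TPM and lost its call without DBA replicate 2, T2KO replicate 1 or T2KO replicate 2 (adjusted p up to 0.115). The family's count of rises was 6 or 7 in these fits and Ifi202b fell in each.

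Interferon-stimulated genes outside that family rose in part. Of 46 tested, 13 rose (28.3%, against 10.1% of all genes tested) and 1 fell (2.17%, against 15.1%). Their median log2 fold change was 0.27, beside -0.06 over all genes. The rises were fewer in each fit without 1 library, as were those over all genes, and their share stayed above that of all genes. The guanylate-binding proteins, which attack the vacuoles of intracellular pathogens, rose together: Gbp2 had 24.9 and 22.8 TPM in T2KO macrophages, against 7.1 and 10.0 TPM in DBA macrophages (log2 fold change 1.40 ± 0.16, adjusted p = 1.91e-04). Gbp3 had 13.8 and 12.4 TPM in T2KO macrophages, against 3.57 and 4.05 TPM in DBA macrophages (log2 fold change 1.55 ± 0.18, adjusted p = 1.80e-04). Gbp7 had 17.4 and 18.3 TPM in T2KO macrophages, against 5.39 and 6.45 TPM in DBA macrophages (log2 fold change 1.45 ± 0.19, adjusted p = 4.19e-04). None of these 3 genes overlapped between the groups. Bst2, the tether of budding virus particles, had 299 and 268 TPM in T2KO macrophages, against 146 and 154 TPM in DBA macrophages (log2 fold change 0.91 ± 0.13, adjusted p = 8.30e-04). Trim30d rose most, with 33.8 and 31.1 TPM in T2KO macrophages, against 4.78 and 6.16 TPM in DBA macrophages (log2 fold change 2.38 ± 0.14, adjusted p = 1.84e-06). Ifit1, which binds viral RNA caps, had 33.2 and 32 TPM in T2KO macrophages, against 12.5 and 13.6 TPM in DBA macrophages (log2 fold change 1.26 ± 0.26, adjusted p = 0.00701). The transcription factors Irf7 and Stat2 did not pass, with log2 fold changes of -0.15 ± 0.34 and -0.002 ± 0.17, and neither did Mx1, Oas1a and Isg15 (0.32 ± 0.29, 0.001 ± 0.12 and 0.56 ± 0.20). Xaf1, a pro-apoptotic interferon target, was the 1 member that fell, with 18.1 and 17.2 TPM in T2KO macrophages, 63.8 and 67.9 TPM in DBA macrophages and 13 and 8.02 TPM in B6 macrophages (log2 fold change -1.84 ± 0.18, adjusted p = 7.59e-05).

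Of 26 tested genes of class I and peptide loading, 14 fell (53.8%, against 15.1% of all genes tested) and 5 rose (19.2%, against 10.1%). The 5 include the entry listed as H2-L, which is not taken as a separate rise below. The median log2 fold change was -0.35. The falls were 13 without DBA replicate 1 and 10 in each of the other 3 fits without 1 library, and the rises were 4 in each. H2-Q7, H2-Q9 and H2-T23 were no longer called without DBA replicate 2, T2KO replicate 1 or T2KO replicate 2 (adjusted p up to 0.186), and the rise of B2m was lost in all 4 fits (adjusted p up to 0.185). All falls but that of H2-K1 lay in the Q and T regions of chromosome 17, which encode non-classical molecules. H2-Q2 had 0.621 and 0.259 TPM in T2KO macrophages, 38.7 and 41.9 TPM in DBA macrophages and 0.318 and 0.348 TPM in B6 macrophages (log2 fold change -4.85 ± 0.15, adjusted p = 2.02e-08). H2-Q1 had 0.902 and 0.973 TPM in T2KO macrophages, against 22.3 and 20.4 TPM in DBA macrophages (log2 fold change -3.53 ± 0.10, adjusted p = 1.76e-08). H2-Q5 had 8.44 and 7.84 TPM in T2KO macrophages, against 123 and 115 TPM in DBA macrophages (log2 fold change -3.71 ± 0.16, adjusted p = 2.57e-07). H2-Q10, known as a secreted molecule of liver, had 0.589 and 0.444 TPM in T2KO macrophages, against 32.7 and 26.4 TPM in DBA macrophages (log2 fold change -4.33 ± 0.15, adjusted p = 6.70e-08). Each was high in both DBA libraries and at 0.259 to 8.44 TPM in T2KO libraries. H2-Q4 had 96.2 and 95.4 TPM in T2KO macrophages, against 296 and 305 TPM in DBA macrophages (log2 fold change -1.64 ± 0.11, adjusted p = 5.54e-06). H2-T24 had 49.7 and 46.2 TPM in T2KO macrophages, against 109 and 127 TPM in DBA macrophages (log2 fold change -1.28 ± 0.09, adjusted p = 7.34e-06). H2-T3, the thymus leukaemia antigen, was listed at 0 in both T2KO libraries, against 4.68 and 4.23 TPM in DBA libraries. Of the classical genes, H2-D1 had 3089 and 3148 TPM in T2KO macrophages, against 2258 and 2188 TPM in DBA macrophages, and it rose (log2 fold change 0.49 ± 0.06, adjusted p = 3.23e-04). The entry listed as H2-L had 3463 and 3509 TPM in T2KO macrophages, against 1899 and 1774 TPM in DBA macrophages (log2 fold change 0.92 ± 0.07, adjusted p = 7.72e-06). Reads of H2-D1 may be counted for that entry, so it is not taken as a separate rise. H2-K1 fell with all 4 libraries, at 1158 and 1156 TPM in T2KO macrophages, against 1549 and 1484 TPM in DBA macrophages (log2 fold change -0.39 ± 0.10, adjusted p = 0.0182), a call lost in each fit without 1 library (adjusted p up to 0.0884). The transporter genes Tap1 and Tap2 and the immunoproteasome gene Psmb8 did not pass, with log2 fold changes of -0.05 ± 0.11, -0.04 ± 0.07 and -0.11 ± 0.08. These genes are near-identical copies and differ in sequence between H2 haplotypes, so reads may be split between them, and alignment to the b haplotype of the reference was not tested as a part of these values.

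Of 9 tested class II genes 3 rose (33.3%, against 10.1% of all genes tested) and the Eα chain alone fell (11.1%, against 15.1%). Their median log2 fold change was 0.38. H2-Eb1, the β chain that pairs with Eα, had 117 and 122 TPM in T2KO macrophages, against 87.8 and 71.5 TPM in DBA macrophages, and it rose (log2 fold change 0.58 ± 0.11, adjusted p = 0.00462). H2-DMb1, a chain of the peptide exchange factor, had 25.5 and 25 TPM in T2KO macrophages, against 13 and 8.15 TPM in DBA macrophages (log2 fold change 1.21 ± 0.21, adjusted p = 0.00281). H2-Aa and H2-Ab1, the chains of the A molecule, had non-overlapping libraries but did not pass, with log2 fold changes of 0.41 ± 0.17 and 0.38 ± 0.15. Cd74, the invariant chain, passed with all 4 libraries at 602 and 589 TPM in T2KO macrophages, against 433 and 340.3 TPM in DBA macrophages, and it lost its call without DBA replicate 2, T2KO replicate 1 or T2KO replicate 2 (adjusted p up to 0.245).

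Of 18 tested paired activating and inhibitory receptors of myeloid cells 10 fell (55.6%, against 15.1% of all genes) and 3 rose (16.7%, against 10.1%). Their median log2 fold change was -0.37. The activating receptors Pira1, Pira6 and Pira11 fell most, and Pira11 had 6.03 and 6.25 TPM in T2KO macrophages, 69 and 77.5 TPM in DBA macrophages and 7.93 and 7.81 TPM in B6 macrophages (log2 fold change -3.38 ± 0.09, adjusted p = 1.15e-08). Pira2 rose instead, with 16.2 and 16.5 TPM in T2KO macrophages, against 11.4 and 9.78 TPM in DBA macrophages (log2 fold change 0.59 ± 0.12, adjusted p = 0.00645), as did the inhibitory partner Pirb, with 273 and 286 TPM in T2KO macrophages, against 203 and 205 TPM in DBA macrophages (log2 fold change 0.45 ± 0.05, adjusted p = 2.28e-04). The Pira genes are close copies, so the division of reads between them is uncertain. Sirpa, the receptor for the "do not eat me" signal Cd47, had 972 and 940.4 TPM in T2KO macrophages, against 1402 and 1413 TPM in DBA macrophages, and it fell (log2 fold change -0.56 ± 0.05, adjusted p = 4.10e-05). Sirpb1a, an activating relative, had 1.69 and 1.8 TPM in T2KO macrophages, against 9.44 and 10.0 TPM in DBA macrophages (log2 fold change -1.97 ± 0.20, adjusted p = 9.94e-05). Cd300lf, a lipid-binding inhibitory receptor, rose, with 36.7 and 40.0 TPM in T2KO macrophages, against 10.4 and 11.1 TPM in DBA macrophages (log2 fold change 1.74 ± 0.18, adjusted p = 9.75e-05). Among C-type lectins 4 of 14 tested genes fell (28.6%, against 15.1% of all genes tested) and 1 rose (7.14%, against 10.1%). The falls kept their calls in each fit without 1 library. The median log2 fold change of these lectins was -0.28. Clec4b1 had 4.84 and 5.82 TPM in T2KO macrophages, against 26.4 and 25.4 TPM in DBA macrophages (log2 fold change -2.09 ± 0.13, adjusted p = 3.64e-06). Clec12a, an inhibitory receptor for uric acid crystals, had 144 and 146 TPM in T2KO macrophages, against 253 and 295 TPM in DBA macrophages (log2 fold change -0.91 ± 0.08, adjusted p = 3.36e-05). The single rise, Clec5a, lost its call without DBA replicate 1 or T2KO replicate 1 (adjusted p up to 0.094).

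**Figure D3:**
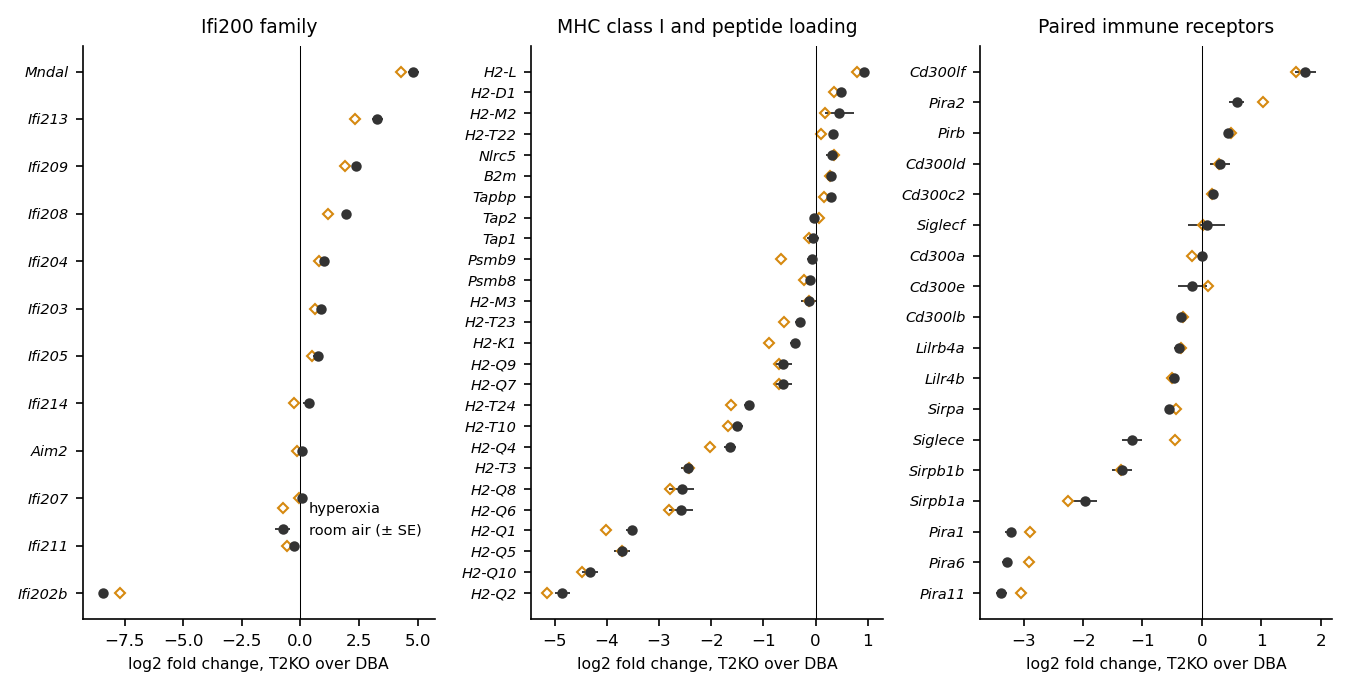
Log2 fold change, T2KO over DBA, on the x axis for each tested member of the Ifi200 family, of MHC class I and peptide loading, and of the paired immune receptors. Filled circles are room air with bars of 1 standard error, and open diamonds are the separate hyperoxia libraries. Ifi202b (-8.44 in room air and -7.70 in hyperoxia), the H2-Q genes and 3 Pira genes lie far to the left, and Mndal (4.82 in room air and 4.29 in hyperoxia) far to the right.

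The 3 chains of complement C1q, which tags dead cells and immune complexes, were higher in T2KO macrophages. C1qb had 2795 and 2832 TPM in T2KO macrophages, 502 and 446 TPM in DBA macrophages and 2486 and 2022 TPM in B6 macrophages (log2 fold change 2.57 ± 0.14, adjusted p = 1.14e-06). C1qa had 585 and 591 TPM in T2KO macrophages, against 260.4 and 230.1 TPM in DBA macrophages (log2 fold change 1.26 ± 0.10, adjusted p = 1.82e-05). C1qc had 1846 and 1889 TPM in T2KO macrophages, against 808 and 708 TPM in DBA macrophages (log2 fold change 1.30 ± 0.14, adjusted p = 1.10e-04). The 3 genes lie next to each other on chromosome 4, and none overlapped between the groups. The receptors for the fragment C5a also rose: C5ar1 had 283 and 278 TPM in T2KO macrophages, against 194 and 184 TPM in DBA macrophages (log2 fold change 0.57 ± 0.11, adjusted p = 0.00584). C5ar2 had 10.1 and 8.78 TPM in T2KO macrophages, against 0.956 and 1.77 TPM in DBA macrophages (log2 fold change 2.16 ± 0.16, adjusted p = 1.17e-05). C3 and its receptor C3ar1 did not pass, with log2 fold changes of -0.46 ± 0.42 and -0.15 ± 0.08. Of 21 tested complement genes 6 rose (28.6%, against 10.1% of all genes tested) and 2 fell (9.52%, against 15.1%). The median log2 fold change was -0.15. There were 3 falls without DBA replicate 1 and 1 without DBA replicate 2 or T2KO replicate 2, and both were lost without T2KO replicate 1.

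Scavenger and phagocytic receptors split. Of 23 tested, 11 rose (47.8%, against 10.1% of all genes tested) and 7 fell (30.4%, against 15.1%). Their median log2 fold change was 0.07 (-0.008 without DBA replicate 1). Both counts were lower in each fit without 1 library. Cd5l, a secreted scavenger protein of tissue macrophages, had 393 and 338 TPM in T2KO macrophages, 42.4 and 37.6 TPM in DBA macrophages and 311 and 259 TPM in B6 macrophages (log2 fold change 3.16 ± 0.13, adjusted p = 1.84e-07). Mertk, the receptor tyrosine kinase for dead-cell uptake, had 104 and 95.6 TPM in T2KO macrophages, against 66.4 and 64.8 TPM in DBA macrophages (log2 fold change 0.59 ± 0.09, adjusted p = 0.00141). Siglec1, the sialoadhesin of macrophages, had 176 and 148 TPM in T2KO macrophages, against 113 and 98.5 TPM in DBA macrophages (log2 fold change 0.61 ± 0.09, adjusted p = 8.36e-04). The inhibitory antibody receptor Fcgr2b had 267 and 289 TPM in T2KO macrophages, against 171 and 180.3 TPM in DBA macrophages (log2 fold change 0.66 ± 0.10, adjusted p = 0.00151). Each of these 4 was higher in both T2KO libraries than in both DBA libraries. The falls included the class A scavenger receptors: Marco had 3.46 and 2.04 TPM in T2KO macrophages, against 18.4 and 19.1 TPM in DBA macrophages (log2 fold change -2.42 ± 0.20, adjusted p = 2.07e-05). Msr1 had 36.3 and 33.5 TPM in T2KO macrophages, against 89.7 and 106 TPM in DBA macrophages (log2 fold change -1.46 ± 0.13, adjusted p = 3.87e-05). Colec12, a scavenger receptor with a collectin domain, had 19.5 and 17.9 TPM in T2KO macrophages, against 77.1 and 82.3 TPM in DBA macrophages (log2 fold change -2.04 ± 0.18, adjusted p = 3.84e-05). Among genes of alternative activation 4 of 11 tested rose (36.4%, against 10.1% of all genes tested) and 1 fell (9.09%, against 15.1%). Their median log2 fold change was 0.32. Fewer of them rose in each fit without 1 library but that without DBA replicate 1. Mgl2, a galactose-type lectin, had 7.61 and 8.01 TPM in T2KO macrophages, against 0.856 and 0.799 TPM in DBA macrophages (log2 fold change 2.27 ± 0.18, adjusted p = 1.64e-05). Chil3, a chitinase-like protein of macrophages and neutrophils, had 8.07 and 5.07 TPM in T2KO libraries and was listed at 0 in both DBA libraries. Arg1 and Retnla, defining genes of that state, were below 1 TPM in all 4 libraries.

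Granule and calcium-binding proteins of neutrophils were higher in T2KO libraries. S100a8 had 30.8 and 17.7 TPM in T2KO macrophages, against 1.89 and 2.54 TPM in DBA macrophages (log2 fold change 2.93 ± 0.45, adjusted p = 0.00125). S100a9 had 45.3 and 22.7 TPM in T2KO macrophages, against 2.54 and 3.79 TPM in DBA macrophages (log2 fold change 3.01 ± 0.31, adjusted p = 9.88e-05). The granule protein Ngp had 15 and 7.53 TPM in T2KO macrophages, against 0.38 and 0.426 TPM in DBA macrophages (log2 fold change 3.06 ± 0.33, adjusted p = 1.17e-04). All 5 tested of 10 neutrophil markers rose, though Mpo lost its call without T2KO replicate 1. The other 5 were below the filter, which a marker can pass through the libraries where it is high. The count of 5 is therefore partly set by the filter. S100a8, S100a9 and Ngp were each higher in the first T2KO library than in the second. Ly6g was listed at 0 and Cxcr2 had 0.182 and 0.019 TPM in T2KO and 0.048 and 0.054 TPM in DBA libraries. The part of other cells in these values, and in Chil3, was not tested.

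Sensors of microbial products also moved in both directions. Of 28 tested genes 9 rose (32.1%, against 10.1% of all genes tested) and 3 fell (10.7%, against 15.1%). Their median log2 fold change was 0.12 (-0.005 without DBA replicate 1). Cd14, the co-receptor for lipopolysaccharide, had 145 and 162 TPM in T2KO macrophages, 551 and 559.9 TPM in DBA macrophages and 584 and 389.9 TPM in B6 macrophages (log2 fold change -1.85 ± 0.23, adjusted p = 3.09e-04). Its signalling partners did not pass, with log2 fold changes of 0.18 ± 0.11 for Tlr4 and -0.01 ± 0.15 for Ly96. Tlr1, a co-receptor of Tlr2 for bacterial lipopeptides, had 35.7 and 35.2 TPM in T2KO macrophages, 8.05 and 8.15 TPM in DBA macrophages and 46.3 and 39.6 TPM in B6 macrophages (log2 fold change 2.00 ± 0.09, adjusted p = 2.39e-07). Tlr9, the receptor for unmethylated DNA, had 37.2 and 40.8 TPM in T2KO macrophages, against 23.6 and 22.9 TPM in DBA macrophages (log2 fold change 0.72 ± 0.12, adjusted p = 0.00187). Tlr13, which detects bacterial ribosomal RNA, had 136 and 128 TPM in T2KO macrophages, against 229 and 255 TPM in DBA macrophages (log2 fold change -0.86 ± 0.07, adjusted p = 1.72e-05). Naip6, a flagellin sensor with close copies, had 14.6 and 14 TPM in T2KO macrophages, against 8.06 and 9.84 TPM in DBA macrophages (log2 fold change 0.63 ± 0.13, adjusted p = 0.00595). The inflammasome genes Nlrp3, Casp1 and Gsdmd did not pass, with log2 fold changes of 0.18 ± 0.18, 0.12 ± 0.10 and 0.11 ± 0.06.

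Chemoattractant receptors fell in 6 of 9 tested genes (66.7%, against 15.1% of all genes tested), with a median log2 fold change of -1.22. Cxcr4, the receptor for Cxcl12, had 214 and 226 TPM in T2KO macrophages, 497 and 531 TPM in DBA macrophages and 187 and 180.1 TPM in B6 macrophages (log2 fold change -1.22 ± 0.05, adjusted p = 2.39e-07). Both DBA libraries lay above both T2KO libraries. Ccrl2, which presents chemerin, had 13.4 and 13.8 TPM in T2KO macrophages, against 42.2 and 40.3 TPM in DBA macrophages (log2 fold change -1.53 ± 0.25, adjusted p = 0.00196). Cx3cr1, the fractalkine receptor, had 1.48 and 1.42 TPM in T2KO macrophages, against 5.5 and 4.33 TPM in DBA macrophages (log2 fold change -1.27 ± 0.23, adjusted p = 0.00313). Fpr2, a formyl peptide receptor, had 2.22 and 1.71 TPM in T2KO macrophages, against 7.19 and 7.8 TPM in DBA macrophages (log2 fold change -1.52 ± 0.27, adjusted p = 0.00304). Fpr1, a related receptor, lost its call in each fit without 1 library (adjusted p up to 0.111), which left 5 falls in the list. Ccr2, the receptor of inflammatory monocytes, did not pass (0.29 ± 0.24).

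Among 29 tested chemokines and cytokines 6 rose (20.7%, against 10.1% of all genes tested) and 7 fell (24.1%, against 15.1%). Their median log2 fold change was 0.26. Both counts were lower in each fit without 1 library, and the share of falls came near that of all genes without DBA replicate 1. Among CC chemokines, which draw monocytes and T cells, Ccl3 rose and had 78.1 and 80.6 TPM in T2KO macrophages, against 43.4 and 42.8 TPM in DBA macrophages (log2 fold change 0.87 ± 0.14, adjusted p = 0.00136). Ccl5, another, had 24.9 and 16.3 TPM in T2KO macrophages, against 4.17 and 2.49 TPM in DBA macrophages (log2 fold change 2.31 ± 0.39, adjusted p = 0.00226). Ccl4, a close relative of Ccl3, had 33.8 and 34.6 TPM in T2KO macrophages, against 24 and 34.9 TPM in DBA macrophages, and it did not pass (log2 fold change 0.23 ± 0.27). Vegfa, the growth factor of vessels, had 60.2 and 62.8 TPM in T2KO macrophages, against 41.3 and 40.7 TPM in DBA macrophages (log2 fold change 0.57 ± 0.05, adjusted p = 4.58e-05). Besides Cxcl14, the transmembrane chemokine Cxcl16 fell, with 162 and 156 TPM in T2KO macrophages, against 421 and 439 TPM in DBA macrophages (log2 fold change -1.43 ± 0.08, adjusted p = 1.57e-06), as did the neutrophil attractant Cxcl1, with 1.63 and 0.899 TPM in T2KO macrophages, against 4.26 and 4.34 TPM in DBA macrophages (log2 fold change -1.25 ± 0.16, adjusted p = 4.72e-04). Il1b, the pro-inflammatory cytokine, had 2.67 and 3.19 TPM in T2KO macrophages, against 6.55 and 12.8 TPM in DBA macrophages (log2 fold change -1.38 ± 0.25, adjusted p = 0.00327), levels that were low in all 4 libraries. Tnf passed with all 4 libraries at 6.22 and 5.52 TPM in T2KO macrophages, against 10.5 and 14.2 TPM in DBA macrophages, and its call was lost without DBA replicate 2 or T2KO replicate 2 (adjusted p up to 0.063). Il6 and Il12b stayed below 1 TPM.

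Lipid-associated macrophage genes, a set often described as depending on Trem2, did not move as 1 group. Of 30 tested, 5 rose (16.7%, against 10.1% of all genes tested) and 8 fell (26.7%, against 15.1%), and the median log2 fold change was -0.15. The count of falls was 5 without DBA replicate 2 or without T2KO replicate 2. Besides Gpnmb, the matrix protein Spp1 (osteopontin) rose, with 1021 and 984 TPM in T2KO macrophages, 439.8 and 493 TPM in DBA macrophages and 3804 and 3756 TPM in B6 macrophages (log2 fold change 1.10 ± 0.08, adjusted p = 1.19e-05), as did the tetraspanin Cd63, with 604 and 602 TPM in T2KO macrophages, against 346 and 349 TPM in DBA macrophages (log2 fold change 0.79 ± 0.07, adjusted p = 5.28e-05). The apolipoprotein gene Apoc2 rose, with 89.4 and 101 TPM in T2KO macrophages, against 39 and 29 TPM in DBA macrophages (log2 fold change 1.47 ± 0.16, adjusted p = 1.15e-04). Lpl, the lipase that hydrolyses lipoprotein triglycerides, fell, with 219 and 153 TPM in T2KO macrophages, 667 and 749 TPM in DBA macrophages and 1815 and 2061 TPM in B6 macrophages (log2 fold change -1.94 ± 0.14, adjusted p = 1.06e-05). Cd36, the fatty acid and oxidized lipoprotein receptor, had 298 and 226 TPM in T2KO macrophages, 805 and 836 TPM in DBA macrophages and 412 and 676 TPM in B6 macrophages (log2 fold change -1.66 ± 0.23, adjusted p = 5.88e-04). Both genes were lower in each T2KO library than in every DBA library. The lipid droplet protein Plin2 had 997 and 856 TPM in T2KO macrophages, against 1600.0 and 1559.5 TPM in DBA macrophages (log2 fold change -0.77 ± 0.08, adjusted p = 6.75e-05). The cholesterol exporter Abcg1 had 139 and 132 TPM in T2KO macrophages, against 231 and 229 TPM in DBA macrophages (log2 fold change -0.76 ± 0.10, adjusted p = 5.0e-04). The lysosomal lipase Lipa had 970.4 and 867 TPM in T2KO macrophages, against 1279 and 1323 TPM in DBA macrophages (log2 fold change -0.50 ± 0.08, adjusted p = 0.00152). Apoe, Fabp5, Lgals3 and Cd9, further genes of that set, did not pass, with log2 fold changes of -0.52 ± 0.18, 0.64 ± 0.24, 0.17 ± 0.10 and -0.35 ± 0.12.

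Sterol and fatty acid synthesis genes rose in 12 of 32 tested (37.5%, against 10.1% of all genes tested) and fell in 2 (6.25%, against 15.1%). Their median log2 fold change was 0.24. Fdft1, squalene synthase, had 139 and 149.9 TPM in T2KO macrophages, against 98.8 and 102 TPM in DBA macrophages (log2 fold change 0.52 ± 0.06, adjusted p = 2.54e-04). Insig1, which retains the sterol sensor in the endoplasmic reticulum, had 19 and 22 TPM in T2KO macrophages, against 11.9 and 12.2 TPM in DBA macrophages (log2 fold change 0.72 ± 0.14, adjusted p = 0.00471). Neither overlapped between the groups. Srebf1, a transcription factor of lipid synthesis, fell, with 19.7 and 19.2 TPM in T2KO macrophages, against 23.9 and 25.1 TPM in DBA macrophages (log2 fold change -0.32 ± 0.06, adjusted p = 0.00285). The other fall, Stard4, lost its call without T2KO replicate 1 (adjusted p = 0.0568).

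Lysosomal genes rose in 14 of 40 tested (35%, against 10.1% of all genes tested) and fell in 6 (15%, against 15.1%). Their median log2 fold change was 0.10 (0.07 without DBA replicate 2 or T2KO replicate 1). The rises were fewer in each fit without 1 library, but their share stayed above that of all genes in each. Psap, the precursor of the sphingolipid activator proteins, had 11496 and 11300.0 TPM in T2KO macrophages, 6664 and 5912 TPM in DBA macrophages and 7502 and 9162 TPM in B6 macrophages (log2 fold change 0.86 ± 0.11, adjusted p = 3.98e-04). Lamp1, a major membrane protein of lysosomes, had 1899.5 and 2012 TPM in T2KO macrophages, against 1329 and 1293 TPM in DBA macrophages (log2 fold change 0.58 ± 0.05, adjusted p = 5.63e-05). Glb1, the β-galactosidase, had 69.4 and 71.2 TPM in T2KO macrophages, against 27.3 and 24.7 TPM in DBA macrophages (log2 fold change 1.40 ± 0.09, adjusted p = 2.96e-06). The groups did not overlap in these 3 genes. Ctse, an aspartic protease, fell, with 4.94 and 6.02 TPM in T2KO macrophages, 71.9 and 75.6 TPM in DBA macrophages and 2.18 and 2.04 TPM in B6 macrophages (log2 fold change -3.53 ± 0.11, adjusted p = 1.87e-08). Arsb, which removes sulfate from glycosaminoglycans, had 10.9 and 10.5 TPM in T2KO macrophages, against 35.6 and 35.5 TPM in DBA macrophages (log2 fold change -1.64 ± 0.08, adjusted p = 5.35e-07). The abundant proteases Ctsb, Ctsd and Ctss did not pass, with log2 fold changes of 0.21 ± 0.07, -0.10 ± 0.11 and -0.05 ± 0.15. Steap3, an iron reductase of endosomes, had 24.3 and 24.2 TPM in T2KO macrophages, 93.5 and 93.6 TPM in DBA macrophages and 58.1 and 63.4 TPM in B6 macrophages (log2 fold change -1.91 ± 0.07, adjusted p = 8.15e-08). Ftl1, the ferritin light chain, had 6796 and 6733 TPM in T2KO macrophages, against 10481 and 8926 TPM in DBA macrophages (log2 fold change -0.52 ± 0.10, adjusted p = 0.00415). Of 15 tested iron and heme genes 2 were called higher (13.3%) and 3 lower (20%), near the 10.1% and 15.1% of all genes tested. Their median log2 fold change was -0.10 (-0.18 without T2KO replicate 1 and -0.04 without T2KO replicate 2). The exporter Slc40a1 and Hmox1 did not pass (0.07 ± 0.11 and -0.10 ± 0.12).

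Enzymes of eicosanoids differed strongly in single genes. Hpgd, which inactivates prostaglandins, had 23.6 and 28.6 TPM in T2KO macrophages, 2.22 and 2.11 TPM in DBA macrophages and 22.2 and 19.1 TPM in B6 macrophages (log2 fold change 3.09 ± 0.13, adjusted p = 2.39e-07). Pla2g7, which degrades platelet-activating factor, had 118 and 98.3 TPM in T2KO macrophages, 469 and 504 TPM in DBA macrophages and 41 and 75.4 TPM in B6 macrophages (log2 fold change -2.16 ± 0.23, adjusted p = 1.31e-04). The first was low in both DBA libraries and the other high in both. Lta4h, which makes leukotriene B4, had 50.4 and 45.7 TPM in T2KO macrophages, against 24.3 and 31.2 TPM in DBA macrophages (log2 fold change 0.78 ± 0.11, adjusted p = 7.67e-04). Of 17 tested genes of eicosanoid and arginine metabolism 5 rose (29.4%, against 10.1% of all genes tested) and 5 fell (29.4%, against 15.1%). Their median log2 fold change was 0.13 (0.02 without DBA replicate 1). Both counts were lower in each fit without 1 library. Without DBA replicate 1 the share of falls was below that of all genes.

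Of 28 tested growth factors and receptors 9 rose (32.1%, against 10.1% of all genes tested) and 5 fell (17.9%, against 15.1%). Their median log2 fold change was 0.005 (-0.02 without DBA replicate 1). Part of the falls lost their call without DBA replicate 2 or without T2KO replicate 2. Gdf3, a ligand of the TGF-β family, had 17.2 and 15.7 TPM in T2KO macrophages, 5.62 and 4.02 TPM in DBA macrophages and 74.5 and 58.1 TPM in B6 macrophages (log2 fold change 1.59 ± 0.16, adjusted p = 8.12e-05). Csf2ra, the α chain of the GM-CSF receptor, had 59.6 and 59.8 TPM in T2KO macrophages, against 131 and 109.7 TPM in DBA macrophages (log2 fold change -0.99 ± 0.15, adjusted p = 0.00125). Il6ra, the interleukin-6 receptor, had 79.6 and 81.5 TPM in T2KO macrophages, against 53.3 and 52.3 TPM in DBA macrophages (log2 fold change 0.60 ± 0.10, adjusted p = 0.00157). Ifnar2, a chain of the type I interferon receptor, had 91.5 and 90.3 TPM in T2KO macrophages, against 145 and 141 TPM in DBA macrophages (log2 fold change -0.65 ± 0.08, adjusted p = 3.62e-04). Csf1r, the receptor that macrophages need for survival, passed with all 4 libraries at 1242 and 1309 TPM in T2KO macrophages, against 943 and 958 TPM in DBA macrophages, and it lost its call in each fit without 1 library (adjusted p up to 0.152).

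Of 43 tested adhesion and matrix genes 9 rose (20.9%, against 10.1% of all genes tested) and 12 fell (27.9%, against 15.1%). Their median log2 fold change was 0.03 (-0.09 without T2KO replicate 1). The rises were fewer in each fit without 1 library. The share of rises was below that of all genes without DBA replicate 1 and near it without DBA replicate 2 or T2KO replicate 1. Without T2KO replicate 2 it stayed above that of all genes. Itga4, a subunit of the integrin that binds Vcam1, had 67.6 and 73.9 TPM in T2KO macrophages, against 30.1 and 37.8 TPM in DBA macrophages (log2 fold change 1.04 ± 0.12, adjusted p = 2.27e-04). Adam8, a membrane protease, had 108 and 94.9 TPM in T2KO macrophages, against 258 and 244 TPM in DBA macrophages (log2 fold change -1.30 ± 0.14, adjusted p = 1.12e-04). Cd44, the hyaluronan receptor, had 99.3 and 90.6 TPM in T2KO macrophages, against 159 and 173 TPM in DBA macrophages (log2 fold change -0.80 ± 0.07, adjusted p = 2.72e-05). The elastase Mmp12 passed with all 4 libraries at 58.8 and 49.2 TPM in T2KO macrophages, against 155 and 187 TPM in DBA macrophages, and its call was lost without DBA replicate 2 or T2KO replicate 2 (adjusted p up to 0.0719).

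**Figure D4:**
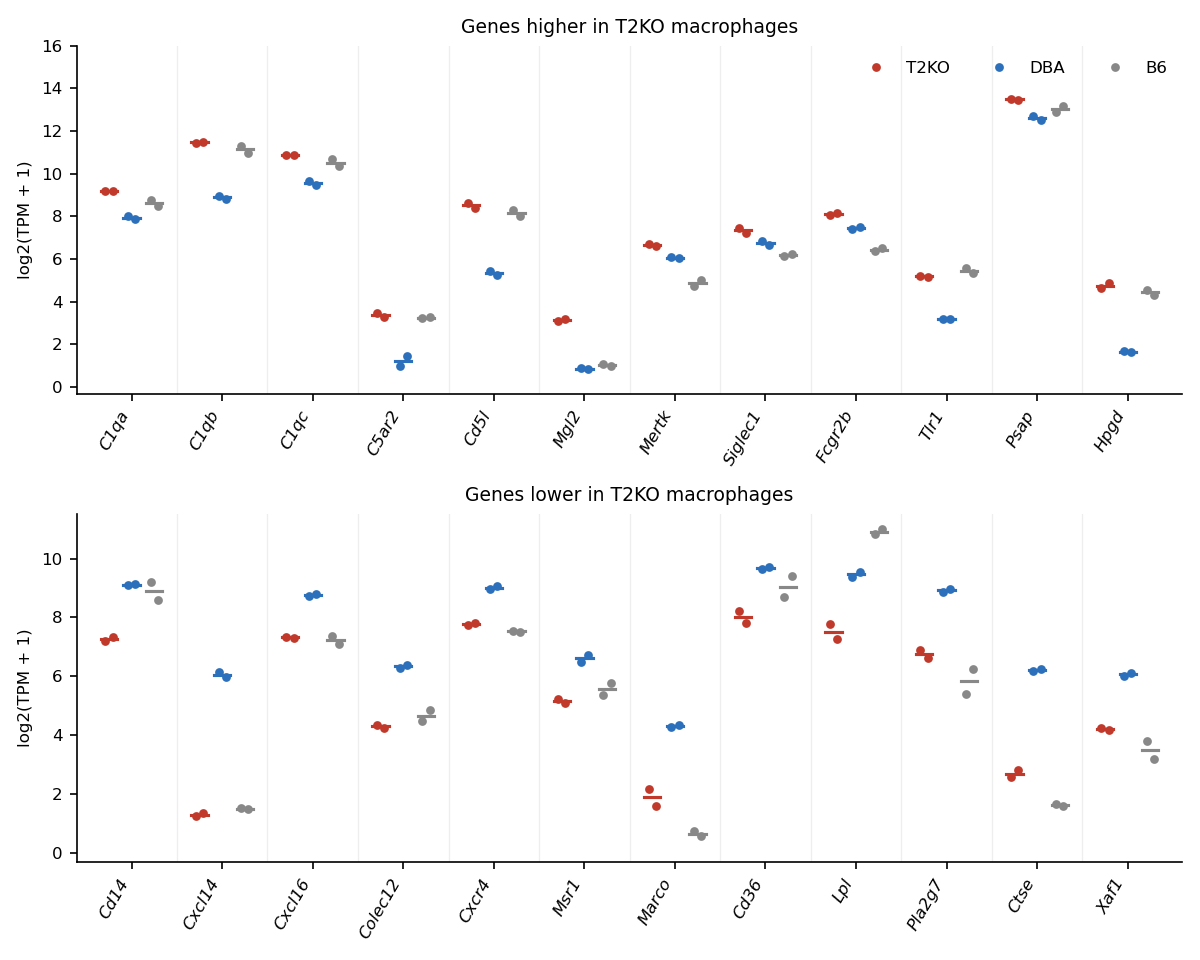
Levels of 12 genes that were higher (upper panel) and 12 that were lower (lower panel) in T2KO macrophages, as log2(TPM + 1) on the y axis. Points are single libraries and bars the mean of 2, red for T2KO, blue for DBA and grey for B6. All are called genes, and within each the red and blue points do not overlap, as was so for 64.5% of all genes tested. The grey points lie near red in Cd5l and Cxcl14, near blue in Cd14 and above both in Lpl.

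Of 38 tested NRF2 and glutathione genes 5 were called higher (13.2%) and 8 lower (21.1%), against 10.1% and 15.1% of all genes tested, with a median log2 fold change of -0.04 (0.01 under quantile normalization). The rises were 3 without DBA replicate 2 and 2 in each fit without 1 T2KO library, and the falls were 5 without T2KO replicate 2. Gsr, glutathione reductase, had 42.5 and 40.0 TPM in T2KO macrophages, against 65.1 and 66.8 TPM in DBA macrophages (log2 fold change -0.67 ± 0.09, adjusted p = 6.27e-04). Cbr3, a carbonyl reductase, had 12.1 and 13.3 TPM in T2KO macrophages, against 31.2 and 31.7 TPM in DBA macrophages (log2 fold change -1.25 ± 0.12, adjusted p = 7.39e-05). Sod1, the cytosolic superoxide dismutase, rose, with 177 and 172 TPM in T2KO macrophages, against 119 and 99.4 TPM in DBA macrophages (log2 fold change 0.68 ± 0.08, adjusted p = 2.86e-04). Gpx1, glutathione peroxidase, fell, with 235 and 232 TPM in T2KO macrophages, against 317 and 310.4 TPM in DBA macrophages (log2 fold change -0.42 ± 0.05, adjusted p = 2.89e-04). Nfe2l2, which encodes NRF2, did not pass (-0.003 ± 0.06). Of 18 tested genes of the ATF4 stress response 6 fell (33.3%, against 15.1% of all genes tested) and 1 rose (5.56%, against 10.1%). Their median log2 fold change was -0.18, and no fit without 1 library held fewer falls. Atf4 had 83.5 and 75.2 TPM in T2KO macrophages, against 111 and 115 TPM in DBA macrophages (log2 fold change -0.51 ± 0.07, adjusted p = 6.49e-04). Its target Slc3a2, a chain of amino acid transporters, had 154 and 147 TPM in T2KO macrophages, against 294 and 265 TPM in DBA macrophages (log2 fold change -0.89 ± 0.06, adjusted p = 4.08e-06). The pseudokinase Trib3, another target, had 1.96 and 1.96 TPM in T2KO macrophages, against 4.32 and 3.4 TPM in DBA macrophages (log2 fold change -0.71 ± 0.12, adjusted p = 0.00277).

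Of 35 tested proliferation genes 10 were called lower (28.6%, against 15.1% of all genes tested) and 0 higher, with a median log2 fold change of -0.38. The falls were 5, 5, 6 and 3 in the fits without DBA replicate 1, DBA replicate 2, T2KO replicate 1 and T2KO replicate 2. The last of these was 8.57% of the list, against 7.11% of all genes in that fit. Pcna, the sliding clamp of replication, had 87 and 78 TPM in T2KO macrophages, 134 and 128 TPM in DBA macrophages and 248 and 248 TPM in B6 macrophages (log2 fold change -0.67 ± 0.08, adjusted p = 2.93e-04). Mcm5, a subunit of the replicative helicase, had 4.19 and 3.95 TPM in T2KO macrophages, against 8.68 and 8.88 TPM in DBA macrophages (log2 fold change -0.95 ± 0.16, adjusted p = 0.00231). Mki67 and Top2a, markers of cycling cells, did not pass. Mki67 had 5.17 and 5.14 TPM in T2KO macrophages, against 8.0 and 6.85 TPM in DBA macrophages, and Top2a had 5.33 and 5.26 TPM in T2KO macrophages, against 7.03 and 7.88 TPM in DBA macrophages. Of 22 tested respiratory and mitochondrial genes 7 fell (31.8%, against 15.1% of all genes tested) and 1 rose (4.55%, against 10.1%). Their median log2 fold change was -0.11 (-0.07 without T2KO replicate 2, where most of the falls lost their call). Quantile normalization gave 5 falls, 2 rises and a median of -0.04. Sdhb, a subunit of succinate dehydrogenase, had 102 and 102 TPM in T2KO macrophages, against 145 and 144 TPM in DBA macrophages (log2 fold change -0.50 ± 0.06, adjusted p = 2.20e-04). Cox7a2l, an assembly factor of respiratory supercomplexes for which a short allele of C57BL/6 is known, had 145 and 165 TPM in T2KO macrophages, 57.6 and 66.9 TPM in DBA macrophages and 173 and 155 TPM in B6 macrophages (log2 fold change 1.30 ± 0.09, adjusted p = 6.15e-06). Of 29 tested glycolysis and hypoxia genes 6 fell (20.7%, against 15.1% of all genes tested) and 1 rose (3.45%, against 10.1%), with a median log2 fold change of -0.14. There were 2 falls without DBA replicate 2, and all 6 were lost without T2KO replicate 2. The single rise was Vegfa.

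**Figure D5:**
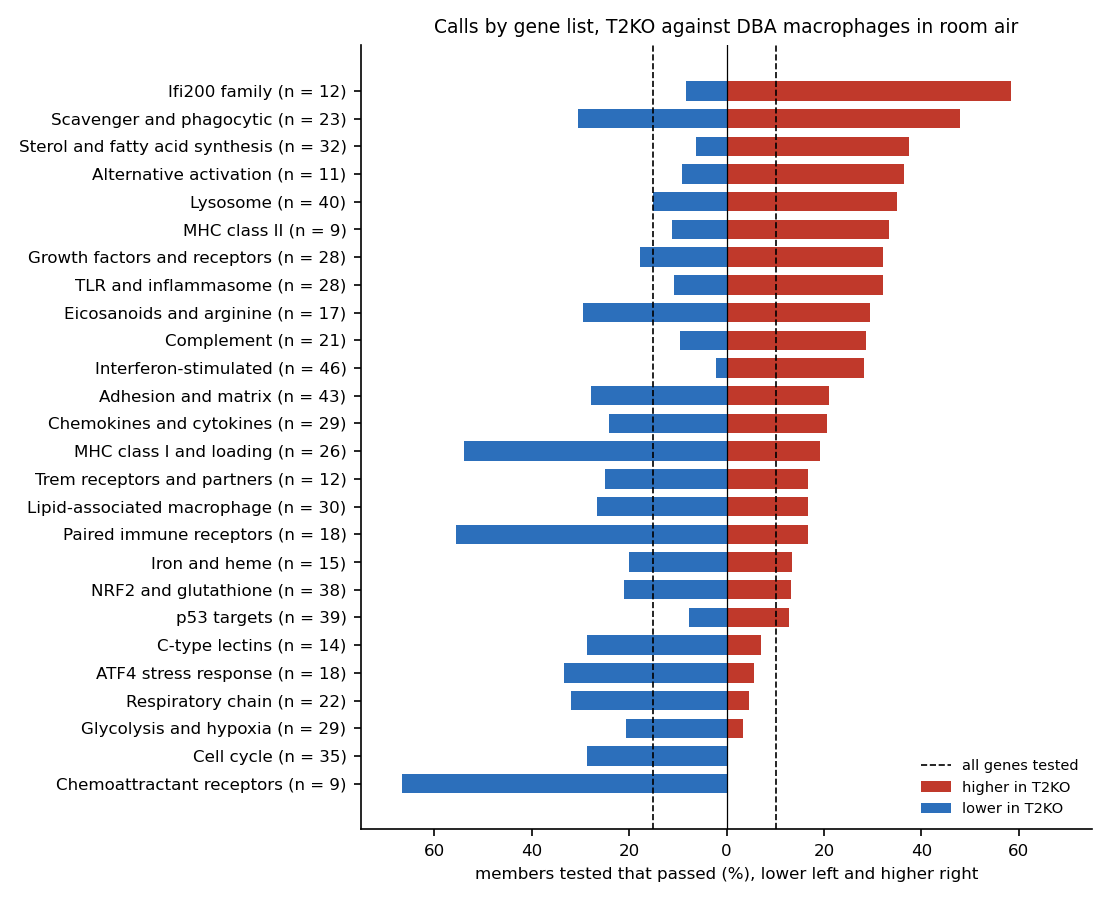
Share of the tested members of 26 gene lists that rose (red, to the right) and fell (blue, to the left) in T2KO macrophages, in percent, with the number tested in brackets. Dashed lines mark the shares over all genes tested, 10.1% higher and 15.1% lower. The Ifi200 family has 7 of 12 rises, and the chemoattractant receptors have 6 of 9 falls.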

How the data were processed

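Poly-A RNA of cultured macrophages was sequenced by the authors, and per the submitters' processing notes STAR, HOMER and the build mm10 were used, with no versions stated. The deposited TPM values per transcript, which the authors computed, were the starting point. They were taken as log2(TPM + 1), and genes at 1 TPM or more in at least 2 of the 12 macrophage libraries were tested (12320 of 24940). Means of the 6 groups were compared in limma 3.58.1 (R 4.3.3), and Benjamini-Hochberg adjustment ran over all genes tested, with a threshold of 0.05. The steps were checked on simulated data. TPM summed to 529220 to 555113 in a library. Depth was estimated from whole multiples of 1 read, which 100.0% of the low values met within 0.15 of a read, and TPM carries no count error. Genes named by rule were Trem2, Trp53, Cdkn1a, members of the Trem and strain lists, the 12 largest rises and 12 largest falls with at least 5 TPM in the higher group and libraries that do not overlap, and up to 4 called genes of each other list. The members and lists were chosen with earlier results of these data known. Alternatives were the samples in the fit, quantile normalization, the pseudocount, the filter, a replicate block and leaving out each library. Promoter windows are RefSeq's for GRCm38.p6. Lung and chromatin samples were not used here. Some genes are not reported here.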

Additional observations from a re-analysis of the deposited data

Results flagged for a closer look

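In 4 genes the difference between T2KO and DBA macrophages itself differed between hyperoxia and room air, by limma's test of the difference of differences over all genes. For Rasd2, a small GTPase, that value was 1.5486 on the log2(TPM + 1) scale (adjusted p = 0.0398). In hyperoxia Rasd2 had 6.91 and 6.68 TPM in T2KO macrophages, against 1.16 and 1.19 TPM in DBA macrophages, and in room air it had 0.406 and 0.433 TPM in T2KO macrophages, against 0.235 and 0.0880 TPM in DBA macrophages. For H2-Ea-ps the value was 1.1282 (adjusted p = 0.0398). It was listed at 0 in all T2KO libraries and had 63.3 and 66.8 TPM in DBA macrophages in hyperoxia, against 153 and 134 TPM in DBA macrophages in room air. For the microRNA gene Mir20a the value was 1.9716 (adjusted p = 0.0220), with 2.76 and 3.09 TPM in DBA macrophages in room air and 0 in the other 6 libraries of both genotypes. For Mir6918 it was -2.9878 (adjusted p = 0.0398), with 1.62 and 1.49 TPM in T2KO macrophages and 0 in DBA macrophages in room air, and 0 in T2KO macrophages and 3.14 and 1.34 TPM in DBA macrophages in hyperoxia. The last 2 are short genes at low TPM.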

How the results depend on the processing

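Between T2KO and DBA macrophages in room air, 2645 genes were called when the fit held the compared groups alone, 3223 under quantile normalization, 2924 with a pseudocount of 0.1, 3263 with no filter, 2719 with at least 5 TPM in 2 libraries and 597 with a log2 fold change of at least 1 in size. Leaving out 1 library gave 1571 to 2860 calls. In hyperoxia the count was 531 with a log2 fold change of at least 1 in size and 1401 to 1607 when 1 library was left out. Quantile normalization made 50.5% of calls higher in T2KO in room air, beside 40.1%, and 51.4% in hyperoxia, beside 36.0%. The 4 genes whose difference between genotypes differed between exposures became 18 with the compared groups alone, 2 under quantile normalization, 2 with a pseudocount of 0.1, 17 with no filter, 0 with at least 5 TPM (limma, 641 at an unadjusted p below 0.05), 0 with a replicate block (802 at that p) and 0 to 1 when 1 library was left out. The replicate numbers did not pair the libraries: deviations of libraries with the same number correlated at 0.003 across genes between T2KO and DBA in room air and at 0.039 in hyperoxia. With the replicate block 2940 genes were called in room air and 2551 in hyperoxia.

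Of the genes named by rule, 97 values of a gene under an alternative lost their call, 2 gained one (Cdkn1a and Ms4a7, with the compared groups alone) and 5 changed sign, none of them called. Treml1 was at 0.0148 under quantile normalization, 0.0097 without DBA replicate 2 and 0.3002 without T2KO replicate 1, Adam10 at -0.0089 without DBA replicate 1, and Tyrobp at -0.0196 without DBA replicate 2. When 1 library was left out, Treml1 ranged from -0.306 to 0.3002, Adam10 from -0.0089 to 0.1361 and Tyrobp from -0.0196 to 0.1514. The cause was not tested. Among lists, quantile normalization gave 10 rises of chemokines and cytokines, beside 6, a pseudocount of 0.1 gave 5 rises of adhesion genes, beside 9, and 3 falls of eicosanoid genes, beside 5, and the compared groups alone gave 5 falls of complement genes, beside 2, and 5 rises of class II genes, beside 3. Of 297 called genes in the lists or named, 183 kept their call in all 4 fits without 1 library and 30 in none. Depth was lower in DBA libraries, so a DBA value at 0 does not show that a gene is silent.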

Other observations

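Called genes with larger differences were counted along the genome. Of 1854 windows of 1 Mb with a tested gene, 1463 held no called gene with a log2 fold change of at least 1 in size, 280 held 1, and 20 held 4 or more, with 106 genes among them. The windows were set after the data were seen, and neighbours can share reads or exons, so they are given as a description with no test. Of the 106 genes, 97 were called in the same direction in each of the 4 fits without 1 library and 9 were not, among them Parp3 of the window on chromosome 9 (adjusted p up to 0.0556) and Mir6381 of that on chromosome 3 (up to 0.133).

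On chromosome 17, 11 of 53 tested genes between 35000001 and 36000000 were lower in T2KO by that measure, and 8 more between 36000001 and 37000000, most of them class I genes. On chromosome 7, 7 genes between 3000001 and 4000000 fell by that measure, 5 of them Pira genes. On chromosome 1 a window from 88000001 to 89000000 held 7 falls of the Ugt1a genes, which add glucuronic acid to lipids and drugs and share exons. Ugt1a1 had 30.9 and 32.5 TPM in T2KO macrophages, against 65.8 and 71.7 TPM in DBA macrophages.

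Other windows held rises. On chromosome 9 between 106000001 and 107000000, 6 genes rose, Rpl29 among them. Its neighbour Dusp7, a phosphatase of MAP kinases, had 46.7 and 50.3 TPM in T2KO macrophages, against 25.2 and 21.8 TPM in DBA macrophages, and Abhd14b, a hydrolase, had 16.2 and 20.4 TPM in T2KO macrophages, against 4.98 and 4.41 TPM in DBA macrophages. On chromosome 3 between 142000001 and 143000000, 5 genes rose, with the guanylate-binding proteins among them, and Gbp5 had 7.37 and 6.97 TPM in T2KO macrophages, against 1.36 and 1.88 TPM in DBA macrophages. On chromosome 7 between 104000001 and 105000000, Trim34a rose, with 29.4 and 29.2 TPM in T2KO macrophages, against 6.17 and 8.66 TPM in DBA macrophages, while its close copy Trim34b fell, with 0.423 and 0.388 TPM in T2KO macrophages, against 8.86 and 8.15 TPM in DBA macrophages. On chromosome 17, Hmga1, a chromatin protein with a close copy, had 89.4 and 92.7 TPM in T2KO macrophages, against 19.1 and 17.2 TPM in DBA macrophages, and Atp6v0c, a subunit of the lysosomal proton pump with a pseudogene copy, had 291 and 296 TPM in T2KO macrophages, against 51.4 and 45.5 TPM in DBA macrophages.

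By chromosome the share of tested genes that were called was highest on chromosomes 1 (30.7%), 6 (30.2%) and 17 (28.9%) and lowest on chromosomes 16 (18.4%), X (19.0%) and 18 (19.7%), beside 25.1% over all. Gapdh, often used as a reference gene and known for many processed copies, was listed at 2.05 and 1.42 TPM in T2KO macrophages, against 1.86 and 1.39 TPM in DBA macrophages.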
